A study of Ovis aries with 14 samples.

Results

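The 100 genes described here varied least across the lungs of 14 lambs (Ovis aries) that ranged from fetal to term and included lambs on respiratory support. They were chosen from the counts themselves. Levels in CPM, the count of a gene per 1000000 counts of its library, were averaged over the 14 libraries, and 4185 of the 27054 genes in the table had a mean from 50 to under 1000 CPM. Among these the 100 genes with the lowest coefficient of variation (CV, the SD over the mean of the 14 CPM values) were taken. RNA came from the right lower lung lobe, and each library came from its own animal. Preterm lambs were supported for 3 days, either invasively, by a mechanical ventilator through a tube in the airway (IMV, n = 3), or noninvasively, without intubation, through a mask with an electronic blower (NRS, n = 3). All 6 supported lambs carried the age label gd134, a gestational day. The other groups had no treatment: fetal start (n = 3, aged gd127, gd128 and gd131), fetal end (n = 3, aged gd135, gd134 and gd136) and term (n = 2, both gd150). In fetal end replicates 1 and 2 the age label and the age written in the animal identifier do not match. The labels give no strain or sex and do not say whether the term lambs had breathed air.

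Some genes are needed by nearly every cell, such as those of the machinery that makes, folds and degrades proteins, copies and splices RNA, moves vesicles and respires. Such housekeeping genes tend to keep a similar level when a tissue changes, and genes of this kind serve as references when other genes are measured by PCR. The lung is a hard test for a reference gene, since late gestation and birth change its cell types, its fluid, its blood flow and its oxygen supply together. In whole tissue a steady level is a sum over all cell types, so fewer cells of a type and less RNA per cell cannot be told apart, and opposite changes in different cell types can cancel.

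The table gives Ensembl gene identifiers and no names. Of the 35057 rows of the reference table at hand 0 hold an Ensembl identifier, so 0 of the 100 genes could be named, and none is called a housekeeping gene here. Lung markers and lists of common reference genes could not be checked for the same reason. Library totals ran from 23267448 (NRS replicate 2) to 31586235 counts (IMV replicate 2), and the 10 most abundant genes took between 9.51% and 12.7% of a library. Each of the 100 genes had between 1110 and 22077 counts in every library. Animal identifiers end in 19 for fetal end, in 18 for NRS and term and in 17 or 18 for IMV and fetal start. What this ending stands for and the step from fetal end to another group therefore cannot be told apart. IMV replicates 1 and 2 end in 17 and replicate 3 in 18, so the ending also differs in part between IMV and NRS.

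The CV of the 100 genes ran from 3.18% to 5.47% with a median of 4.97%, where all 4185 genes of the same range of levels had a median of 13.2%. These values chose the genes and are a description. The ratio of the highest to the lowest library had a median of 1.19 over the 100 genes and ran from 1.10 to 1.28, against a median of 1.58 over the range. Among the 4185 genes, 1018 varied at least 2-fold between libraries. The limit that ended the list did not fall at a gap in CV. The last gene inside it, ENSOARG00000009503, had a CV of 5.47%, and the first outside it, ENSOARG00000009759, had 5.48%. Steady genes were found at every level of the range. They made up 42 of the 2152 genes from 50 to 100 CPM (1.95%), 33 of 1265 from 100 to 200 CPM (2.61%), 23 of 613 from 200 to 500 CPM (3.75%) and 2 of 155 from 500 to 1000 CPM (1.29%). Counting error alone gives a gene a CV that shrinks with its level, and for the 100 genes this part had a median of 1.78%. It accounted for a median of 12.8% of their variance, from 2.60% to 46.3%, so most of the small spread lay beyond counting error. For 16 of the 100 genes the counting part was over 25% of the variance.

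**Figure D1:**
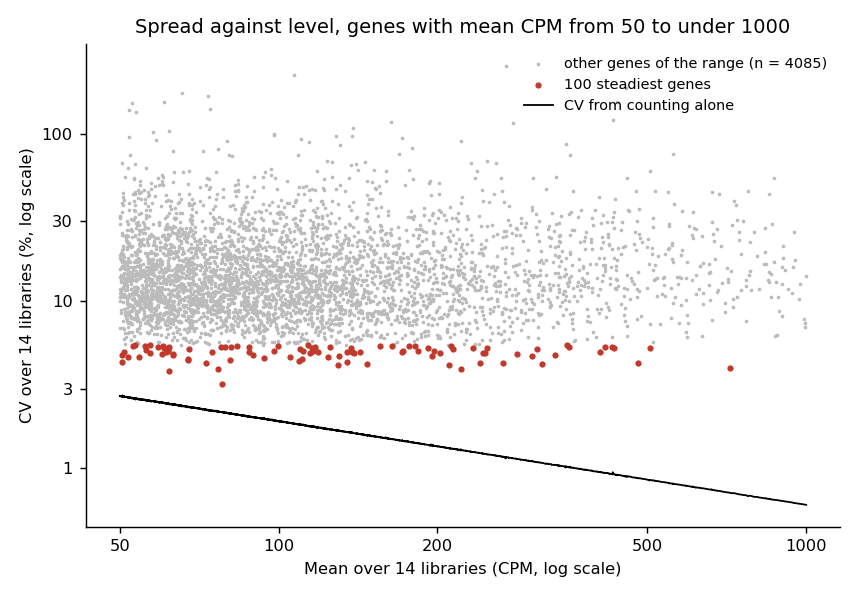
Each point is a gene with a mean from 50 to under 1000 CPM, with its mean over 14 libraries on the x axis (CPM, log scale) and its CV on the y axis (percent, log scale). The 100 steadiest genes lie along the lower edge of the cloud at CVs from 3.18% to 5.47%, and all lie above the black line, which is the CV that counting alone would give.

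ENSOARG00000002393 had the lowest CV of all 4185 genes (3.18%), at 78.3 ± 2.49 CPM (SD, n = 14). Its levels were 79.7, 81.8 and 79.9 CPM at fetal start and 76.2, 80.4 and 75.6 CPM at fetal end. They were 76.9, 80.8 and 78.5 CPM after IMV, 80.6, 80.0 and 74.3 CPM after NRS, and 75.03 and 76.1 CPM at term. The lowest library was NRS replicate 3 and the highest was fetal start replicate 2, and the term libraries lay below all fetal start and all IMV libraries, while the other pairs of groups overlapped. Counting error gave 46.3% of the variance of this gene, the largest share among the 100. ENSOARG00000010053 came next with a CV of 3.81%, and its levels had a median of 62.0 CPM and ran from 58.7 CPM (IMV replicate 1) to 66.3 CPM (fetal end replicate 3). The place of this gene depended on the scale: with library sizes scaled by TMM (edgeR's trimmed mean of M-values, which sets most genes level between libraries) its CV was 5.24%.

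ENSOARG00000016931 was the most abundant of the 100 genes, at 717 ± 28.5 CPM (SD, n = 14), and had a CV of 3.97%. Its levels were 769, 741 and 716 CPM at fetal start and 696, 727 and 692 CPM at fetal end. They were 676, 699 and 762 CPM after IMV, 726, 692 and 717 CPM after NRS, and 686 and 736 CPM at term. The IMV libraries alone held the lowest level and the next to highest, a wider span than that of the group means, which ran from 705 CPM at fetal end to 742 CPM at fetal start. Counting error gave 3.25% of the variance of this gene, so its small spread was mostly a difference between libraries. ENSOARG00000020623 was the least abundant, with a median of 49.6 CPM and a range from 47.4 CPM (fetal end replicate 1) to 53.7 CPM (fetal start replicate 3).

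**Figure D2:**
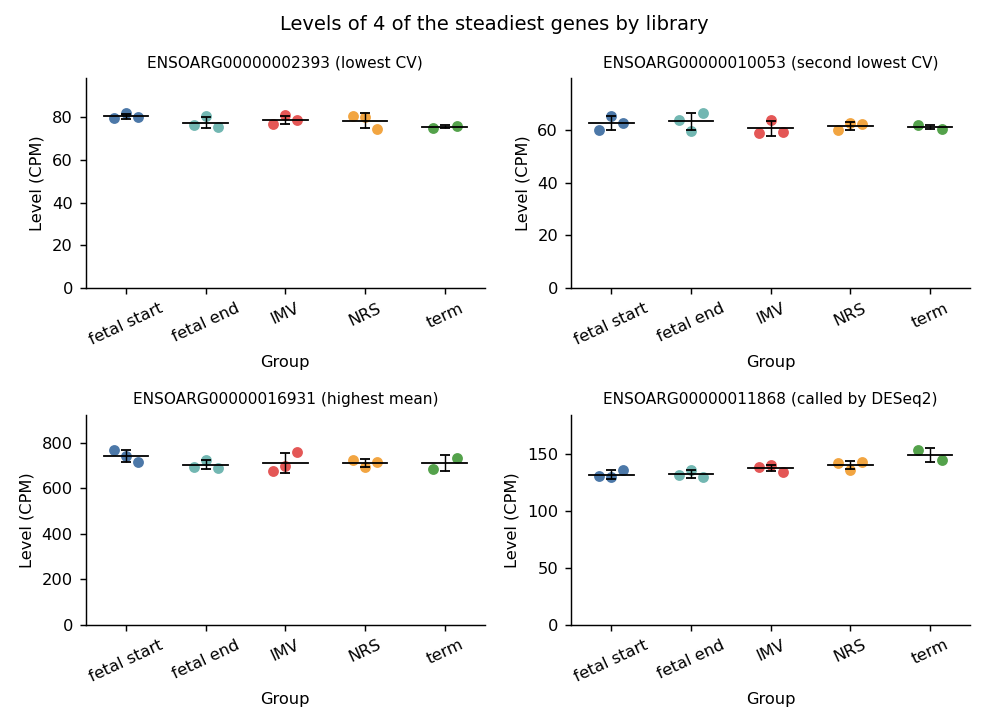
Levels in CPM (y axis, from 0) of 4 of the 100 steadiest genes in the 5 groups (x axis), with a point for each library, a line at the group mean and a bar of 1 SD (n = 3, term n = 2). The first 3 genes lie almost level across the groups, and ENSOARG00000011868 runs from 129 CPM in the lowest fetal library to 154 CPM in the highest term library.

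How the remaining spread was shared between and within groups differed widely among the 100 genes. The differences between the 5 groups held a median of 37.5% of a gene's variance, from 4.10% to 79.6%, where groups that differ by no more than their libraries would hold 30.8% on average. Over all genes of the range the median was 50.7%. A pair of genes chosen after their values were seen shows both ends. ENSOARG00000014222 had the highest share, 79.6%. Its levels were 167, 181 and 172 CPM at fetal start and 176, 171 and 165 CPM at fetal end, against 153, 155 and 152 CPM after IMV. After NRS they were 163, 157 and 165 CPM and at term 162 and 159 CPM. On this scale all 3 IMV libraries were below every other library, but with TMM scaling IMV replicate 1 (157.1 CPM) was above NRS replicates 1 and 2 (156.2 and 152.7 CPM). The gene's CV over all 14 libraries was 5.41%. ENSOARG00000013278 had the lowest share, 4.10%, with 288 and 341 CPM in the term libraries alone, a span that took in all but the lowest of the other 12 values (282 CPM, NRS replicate 2). Its spread was one between animals of the same group. The widest span between libraries, 1.28, was that of ENSOARG00000000667, also chosen after its values were seen, from 53.1 CPM in fetal end replicate 1 to 67.9 CPM in term replicate 3. It was the only one of the 100 genes whose span reached 1.25.

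Seen by library, the 100 genes stayed close to their own means everywhere. The choice by low CV over these same libraries made them so. The counts beside all 4185 genes, which include the 100, are therefore a description. Together they took 1.52% of all counts in the lowest library (IMV replicate 1) and 1.61% in the highest (term replicate 3). Their median level, in percent of each gene's mean over 14 libraries, was 96.6% in IMV replicate 1, 98.0% in IMV replicate 2 and 99.6% in IMV replicate 3. It was 101%, 99.5% and 101% after NRS, 101%, 101% and 100.3% at fetal start, 98.5%, 101% and 99.1% at fetal end, and 99.0% and 103% at term. With TMM scaling the library medians ran from 96.5% (NRS replicate 1) to 105% (fetal start replicate 2). On the scale of library totals no single gene left the band from 85.2% to 114% in any library. In 54 of the 100 genes every library was within 10% of the mean, against 79 of all 4185 genes of the range. Every group mean was within 10% of the gene mean for all 100 genes and for 1175 of the 4185, and within 5% for 57 and 207. The libraries at the ends were not shared evenly. IMV replicate 1 was the lowest library for 20 of the 100 genes and term replicate 3 the highest for 20, while NRS replicate 1 was the lowest for 0. Over all 4950 pairs of the 100 genes the correlation of log2 CPM across the 14 libraries had a median of 0.07, with 5% of pairs below -0.43 and 5% above 0.54. The pairs share the same library totals, and the same values chose the genes, so this is a description.

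**Figure D3:**
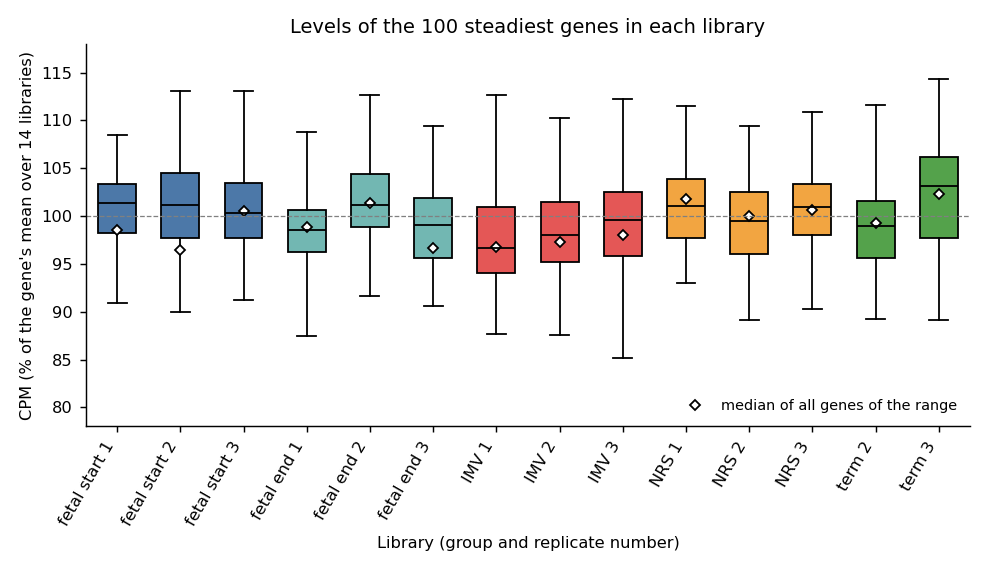
Boxes show the CPM of the 100 genes in each of the 14 libraries (x axis), in percent of each gene's own mean over the libraries (y axis, not from 0), with the median, the quartiles and whiskers to the lowest and highest gene. White diamonds are the median of all 4185 genes of the range, and the medians of the 100 genes run from 96.6% in IMV replicate 1 to 103% in term replicate 3.

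Which group stood highest or lowest for the most genes depended on the scale. With CPM from library totals, IMV had the lowest of the 5 group means for 40 of the 100 genes and term the highest for 33, where the shares over the 4185 genes were 30.3% and 32.8%. Fetal start was highest for 28 (22.2% of the 4185). With TMM scaling NRS was lowest for 31 of the 100 genes, fetal end for 26 and IMV for 25. Fetal start was then highest for 39 and term for 34, so the count for term hardly moved. Term means rest on 2 libraries and the others on 3, which by itself tends to put term at an end more often. The shares over the 4185 genes with TMM scaling are not given here. All 3 IMV libraries were also below 100% in the median of all genes of the range (96.8%, 97.3% and 98.0%). The highest group mean of a gene was a median of 1.08 times its lowest on the scale of library totals, from 1.03 to 1.150, and a median of 1.09 times with TMM scaling, from 1.01 to 1.145.

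All 100 genes passed the filter on low counts and entered a test over 17069 genes (edgeR quasi-likelihood test, TMM scaling, Benjamini-Hochberg adjusted p under 0.05). Low spread over these same libraries chose the genes, so few calls had to follow, and nothing is read from the counts below. Between term and fetal end, where the interval from late fetal to term lung is crossed, 0 of the 100 genes were called, with 5.88% of all genes tested called. At an unadjusted p under 0.05 edgeR counted 3 of the 100, beside 26% of all genes, and DESeq2 called 1 of the 100, beside 14.6% of the genes to which it gave an adjusted p. The log2 fold changes of the 100 genes ran from -0.14 to 0.19 with a median of 0.03, where 5% of all genes tested were below -1.55 and 5% above 1.07. The gene that DESeq2 called was ENSOARG00000011868 (DESeq2 adjusted p = 0.0408), and edgeR did not call it (edgeR adjusted p = 0.137). It had 154 and 145 CPM at term and 131.3, 136.4 and 129.4 CPM at fetal end, so the groups did not overlap, with an edgeR log2 fold change of 0.19 ± 0.08 (SE). It had 130.3, 129.6 and 136.2 CPM at fetal start, 138.9, 140.0 and 134.4 CPM after IMV and 141.8, 136.4 and 143.1 CPM after NRS, which places the supported lambs between the fetal and the term means.

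Fetal end against fetal start compares the later with the earlier fetal ages. Here 0 of the 100 genes were called by edgeR, with 0.00586% of all genes called. At an unadjusted p under 0.05 edgeR counted 0 of the 100 (7.74% of all genes), and DESeq2 called 0 (0.752% of all genes). Log2 fold changes ran from -0.18 to 0.11 with a median of -0.04, and 19 of the 100 were positive. After IMV against fetal end 0 of the 100 genes were called by edgeR, with 0.685% of all genes called. The unadjusted count was 0 (21.7% of all genes), and DESeq2 called 0 (9.67% of all genes). The log2 fold changes ran from -0.14 to 0.13 with a median of 0.01. After NRS against fetal end 0 were called by edgeR, with 0.428% of all genes called. The unadjusted count was 1 (14.3% of all genes), that of ENSOARG00000000103, which had an edgeR adjusted p of 0.343, and DESeq2 called 0 (3.89% of all genes). The log2 fold changes ran from -0.16 to 0.11 with a median of -0.01. Between IMV and NRS 0 of the 100 were called by edgeR, with 0% of all genes called. The unadjusted count was 0 (10.9% of all genes), DESeq2 called 0 (0.853% of all genes), and the log2 fold changes ran from -0.11 to 0.15 with a median of 0.02. The 3 comparisons with fetal end as the reference share its libraries, and fetal end enters a further one.

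A call that was missed does not show that levels were equal. The 95% intervals of the log2 fold changes reached from -0.32 to 0.36 over the 100 genes for term against fetal end and from -0.35 to 0.29 for fetal end against fetal start. They reached from -0.30 to 0.33 for IMV against fetal end, from -0.33 to 0.27 for NRS against fetal end and from -0.28 to 0.32 for IMV against NRS. Each of these ranges runs from the lowest to the highest interval end over the 100 genes, so it is not the interval of a single gene. edgeR estimates the spread of a gene partly from other genes. The gene-wise biological coefficient of variation that it gave the 100 genes had a median of 9.28%. Their CV over all 14 libraries had a median of 4.97%. The quasi-likelihood test that gave the intervals does not use this gene-wise estimate, so the 9.28% is no measure of their width.

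Groups that did not overlap were found among the steady genes too. Groups of 2 or 3 libraries can fail to overlap without any difference between them, more often where 1 group has 2. The counts are therefore a description. On the scale of library totals both term libraries were above all fetal end libraries for 15 of the 100 genes and below them for 11, where 20.2% of all genes tested were higher without overlap and 22.1% lower. With TMM scaling the counts were 24 higher and 8 lower (22% and 20.9% of all genes). For fetal end against fetal start 3 were higher and 5 lower (6.96% and 4.43% of all genes), and with TMM scaling 1 was higher and 12 lower (6.25% and 5.54%). For NRS against fetal end 5 were higher and 7 lower (11.8% and 9.31% of all genes), and with TMM scaling 1 was higher and 7 lower (11% and 10.5%). For IMV against fetal end 1 was higher and 11 lower (13% and 14.6% of all genes), and with TMM scaling 5 were higher and 7 lower (14.9% and 13.2%). For IMV against NRS 2 were higher and 12 lower (6.51% and 13.4% of all genes). With TMM scaling the balance turned to 8 higher and 2 lower (9.36% and 9.76% of all genes). Between IMV and NRS the side with more genes thus depended on the scale. In the other comparisons it was the same on both scales, and only the size of the imbalance changed.

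A library that takes no part in the choice gives a measure that the rule did not use. Each library was left out in turn, 100 genes were chosen by the same rule on the other 13, and their deviation in the library left out from their mean in the other 13 was read. The median absolute deviation of the chosen genes was between 3.79% (fetal start replicate 3) and 7.76% (term replicate 3). For all genes of the range it was between 7.24% (NRS replicate 1) and 14.7% (fetal start replicate 2), and the chosen genes deviated less in 14 of 14 libraries. In term replicate 3, 59 of the 100 chosen genes were within 10% of their mean in the other libraries, the fewest, against 42.6% of the range. In NRS replicate 1 and in fetal start replicate 1 it was 94 of 100, against 63.5% and 52.4%. The largest single deviation of a chosen gene ran from 13.4% to 34.0% over the 14 libraries, where that of any gene of the range ran from 184% to 2756%. The latter is a maximum over 4158 to 4203 genes and not over 100, which by itself tends to make it larger. Each choice shared between 73 (without term replicate 3) and 90 (without IMV replicate 3) of its 100 genes with the list made from all libraries, and 59 genes were in all 14 lists.

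**Figure D4:**
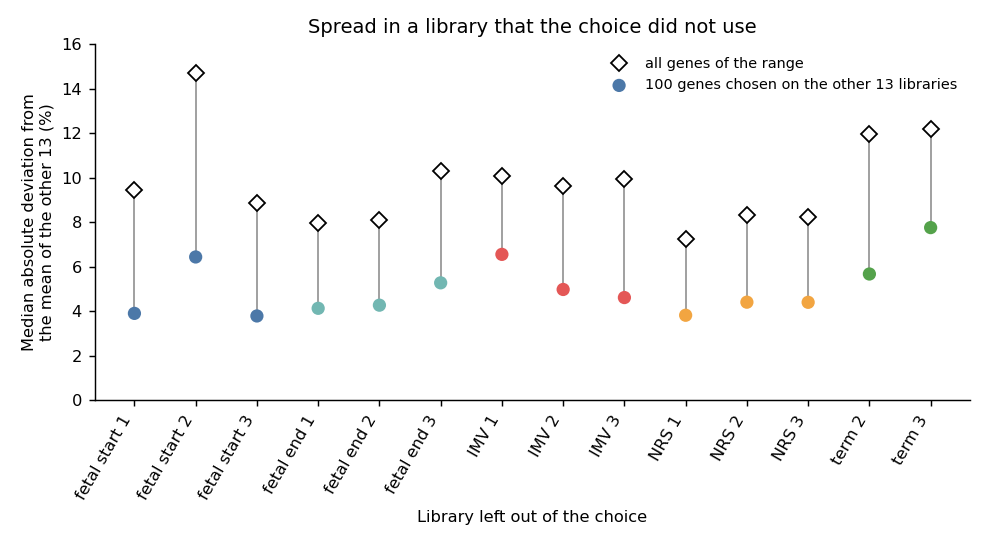
For each library (x axis), filled points give the median absolute deviation (percent, y axis) of 100 genes chosen on the other 13 libraries, and diamonds that of all genes of the range. The filled points run from 3.79% to 7.76% and lie below the diamonds in all 14 libraries.

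Genes that were steady in utero were then followed into supported and term lungs. The same rule on the 6 fetal libraries alone gave 100 genes with a median CV of 2.82% in those libraries. In the 8 supported and term libraries, which did not enter this choice, their median CV was 7.20%, from 3.28% to 15.8%, against 11.4% for all 4137 genes of that range. Of the 100 genes 84 were in the steadier part of the range there, the 2068 genes below its median CV, and 29 were among the 413 of lowest CV. The reverse choice on the 8 supported and term libraries gave a median CV of 4.05% in those and 6.86% in the 6 fetal libraries, against 10.8% for its range. Each choice took the lowest CVs of its own libraries, so some rise in the other libraries follows from the choice alone. Nothing is read from that rise. In the libraries that a choice did not use, the median CV of its genes was below that of the range. The 2 choices of 100, from 4137 and from 4232 genes, had 4 genes in common. Lists drawn without regard to each other would also share a few, so nothing is read from the 4. The list from all 14 libraries shared 28 genes with the fetal choice and 29 with the other, and 46 of its genes were in neither.

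The levels of the 100 fetal-steady genes outside the fetal libraries did not enter the choice. Their median was 99.96% of the fetal mean after NRS, 95.01% after IMV and 101% at term on the scale of library totals. With TMM scaling it was 97.4%, 95.4% and 102%. The group mean stayed within 10% of the fetal mean for 84 genes after NRS, 69 after IMV and 65 at term, where 53.2%, 44.0% and 37.8% of the 4137 genes of the range did. With TMM scaling the counts were 82, 68 and 63, and the differences between the groups in these counts were not tested. After IMV 25 genes were below 90% and 6 above 110%, where 32.1% of the range were below and 23.9% above, and the range had a median of 97.1%. At term 11 were below 90% and 24 above 110%, against 30.8% and 31.4% of the range, whose median was 100.05%. After NRS 7 were below 90% and 9 above 110%, against 20.9% and 25.9% of the range, whose median was 100.8%, and the balance of the 100 genes turned to 14 and 4 with TMM scaling. In all 3 groups together 44 genes stayed within 10%, 2 were above 110% and 4 below 90%. The shares of the range that did so in all 3 groups are not given, so nothing is read from these joint counts. The fetal libraries are shared by the readings of the 3 groups. IMV and NRS, which share no library, did not overlap for 24 of these 100 genes, 5 with IMV higher and 19 with IMV lower, beside the 6.51% and 13.4% of all genes given above. With TMM scaling it was 11 higher and 11 lower, beside 9.36% and 9.76%.

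**Figure D5:**
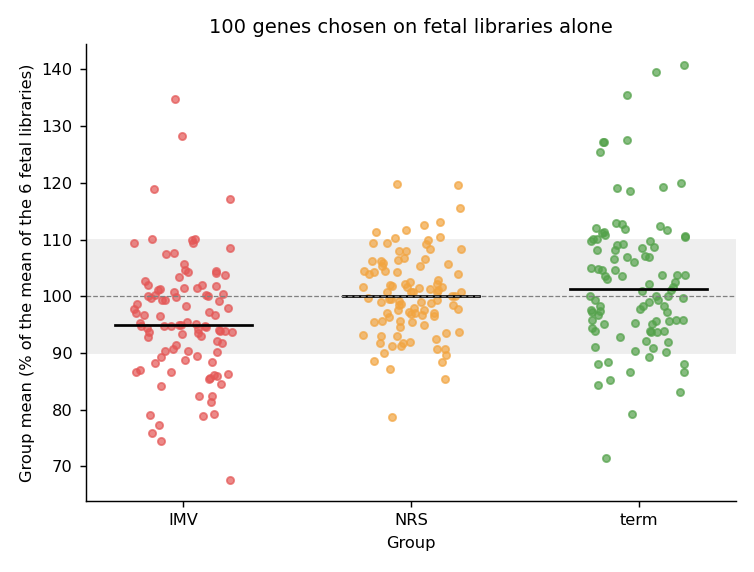
Each point is one of the 100 genes chosen on the 6 fetal libraries, with its mean in IMV, NRS or term lungs (x axis) in percent of its fetal mean (y axis, not from 0), a line at the median and a grey band from 90% to 110%. In the band lie 69 genes for IMV, 84 for NRS and 65 for term.

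The fetal-steady genes with the highest and the lowest mean over the 8 supported and term libraries, in percent of the fetal mean, follow. In single groups other genes stood higher, up to 140.8% of the fetal mean at term (ENSOARG00000016132) and 134.8% after IMV (ENSOARG00000006202). Both genes of the pair were picked for this difference, so their values are a description. ENSOARG00000002910 had 419, 401 and 401 CPM at fetal start and 390, 401 and 424 CPM at fetal end, a CV of 3.14% over the 6 fetal libraries. It had 510, 542 and 510 CPM after IMV, 523, 460 and 477 CPM after NRS and 555 and 546 CPM at term, so every supported and term library was above every fetal one. The mean of those 8 libraries was 126.9% of the fetal mean, and term at 550 ± 6.48 CPM (SD, n = 2) stood above NRS at 487 ± 32.5 CPM (SD, n = 3). ENSOARG00000008616 had 141, 143 and 143 CPM at fetal start and 138.1, 135.3 and 144.6 CPM at fetal end, a CV of 2.52%. It had 90.2, 90.3 and 105 CPM after IMV, 120, 108 and 104 CPM after NRS and 107 and 94.0 CPM at term, and every supported and term library was below every fetal one. Their mean was 72.7% of the fetal mean. The rule applied to fetal lungs alone took both genes, which ranked 2094 and 2960 of 4185 by CV over all 14 libraries.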

How the data were processed

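For the 14 libraries (total RNA, stranded kit, per the labels' protocols) the authors deposited a single count table. Its values are whole-number counts of reads with no normalization, and no deposited column holds an estimated count. The submitters' processing notes name the build Oar_v3.1 and, among other tools, STAR 2.7.0f and featureCounts 1.6.3, and give neither role nor order. The strand setting is not given in the sources used here, so reads of overlapping or antisense genes and of close copies may be misassigned.

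Groups came from the sample titles. The genes, lists and comparisons were chosen with earlier results of these data known. The 10 symbol lists prepared (340 symbols, 0 in the table) could not be used. The genes named are the 2 of lowest CV, those on either side of the limit, those of highest and lowest mean, any called, and a few picked after their values were seen. Counts were tested with edgeR 4.0.16 in R 4.3.3 (quasi-likelihood F test, TMM, filterByExpr with a count minimum of 10), with 5 group means over 14 libraries and 9 residual degrees of freedom. The SE of a log2 fold change is its size over the square root of F. The edgeR test and the choice by CV were each tested on simulated data. The alternatives tried were other scales and measures of spread, each library left out, and for the test DESeq2 1.42.0, RLE scaling, all genes unfiltered, the 2 compared groups by themselves and a block on the replicate number. Other scales for the fetal choice, for overlap, for the spans of group means and for a gene picked after its values were seen were added after seeing the data.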

Additional observations from a re-analysis of the deposited data

How the results depend on the processing

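The number of the 100 genes called by edgeR was 0 in all 5 comparisons. It remained 0 under RLE scaling, no filter, fits of the 2 groups alone and the replicate block. It also ran from 0 to 0 with each IMV, NRS or fetal library of the 2 compared groups left out. Only libraries of the 2 compared groups were left out. With each fetal end library left out, calls over all genes for term against fetal end fell from 1004 to between 114 and 844. They were fewest when fetal end replicate 3 was dropped and most when fetal end replicate 2 was. They ran from 0 (without IMV replicate 1 or fetal end replicate 1) to 644 (without fetal end replicate 2) for IMV against fetal end, from 2 to 44 for NRS against fetal end, from 0 to 5 for fetal end against fetal start and from 0 to 2 for IMV against NRS. A 0 among the 100 genes therefore often stands beside few calls over all genes. For term against fetal end the fit of these groups alone called 141 over all genes. DESeq2 called 1 of the 100 for term against fetal end. Leaving out a term library leaves 1, which is then assumed to vary like the other groups, so no calls are given for it. The labels do not say whether libraries with the same replicate number have anything else in common, and this was not tested. Correlations of same-numbered deviations ran from -0.15 to 0.29 over the pairs. Of 6 libraries in a comparison, 5 correlated best with their own number for IMV against fetal end and 0 in the other 3 comparisons with 3 such pairs. The block moved the calls over all genes from 1004 to 450 for term against fetal end, from 1 to 0 for fetal end against fetal start, from 117 to 4 for IMV against fetal end and from 73 to 15 for NRS against fetal end.

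The list itself depended on the scale and the libraries. Of the 100 genes 65 were chosen again with DESeq2 size factors, 28 on the 6 fetal libraries only, 29 on the 8 supported and term libraries only, and 73 to 90 with each library left out. The median CV of the 100 genes was 5.27% with TMM and 5.32% with DESeq2 size factors, and ran from 4.93% to 5.09% with each library left out. The median level of the fetal choice after NRS was 97.4% with TMM scaling and 97.3% with DESeq2 size factors. With each fetal library or each library of the group read left out, it ran from 99.0% to 101% after NRS and from 94.6% to 97.2% after IMV. At term it ran from 97.9% to 105%. Its side of 100% was thus not settled for NRS and term. For fetal end against fetal start the groups did not overlap for 8 of the 100 genes on the scale of library totals. Of these 3 were higher and 5 lower, beside 6.96% and 4.43% of all genes tested. With TMM scaling it was 13 genes, 1 higher and 12 lower, beside 6.25% and 5.54% of all genes.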
